A study of Mus musculus with 4 samples.

Results

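The genes described here are the 6 Fc receptor genes Fcgr1, Fcgr2b, Fcgr3, Fcgr4, Fcer1g and Fcgrt, chosen by symbol from the 53465 genes counted in the RNA sequencing of myeloid-derived suppressor cells (MDSCs). All 6 passed the filter on low counts, as did 14682 genes in all. MDSCs are immature neutrophil- and monocyte-lineage cells that expand in tumor-bearing hosts and restrain T cells. BALB/c mice had received 1000000 cells of 4T1, a mouse mammary carcinoma line, and per the labels their spleens were taken on day 21. MDSCs were isolated with Gr-1 beads, so the cells share that selection, and were kept for 6 h in control medium (2 libraries) or in medium with 5 μg/mL of epigallocatechin gallate (EGCG), the main catechin of green tea (2 libraries). No cells of mice without tumors were among them, and whether the libraries came from separate mice is not given in the sources used here, so the p-values measure the spread between these libraries only.

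Fc receptors bind the constant part of antibodies and connect antibody-coated particles to the cells that take them up or respond to them. In mice, Fcgr1, Fcgr3 and Fcgr4 encode the activating receptors for IgG, which signal through the paired gamma chain encoded by Fcer1g. That chain carries an immunoreceptor tyrosine-based activation motif (ITAM), whose tyrosines are phosphorylated by Src family kinases and then recruit Syk. Fcgr2b encodes the inhibitory IgG receptor, which carries its own inhibitory motif (ITIM) and recruits the lipid phosphatase SHIP1, encoded by Inpp5d. Fcgrt encodes the heavy chain of FcRn, which pairs with beta-2-microglobulin and salvages IgG and albumin from endosomes. Neutrophils and monocytes of the mouse use Fcgr3 and Fcgr4, monocytes and macrophages also Fcgr1, and B cells have Fcgr2b as their IgG receptor.

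The opposing motifs can be read from the coding sequences, which are shown because they are what sets the activating from the inhibitory genes apart. Both are taken from the reference genome (GRCm38) in the direction of transcription, with the codons of the motif residues in capitals (tyrosine and leucine in Fcer1g, and isoleucine, tyrosine and leucine in Fcgr2b). The Fcer1g stretch joins exon 4, chr1:171230067-171230087, to exon 5, chr1:171229874-171229927, and the Fcgr2b stretch joins the last bases of exon 7, chr1:170961196-170961198, to exon 8, chr1:170961056-170961100. Both genes lie on the minus strand.
Fcer1g ITAM: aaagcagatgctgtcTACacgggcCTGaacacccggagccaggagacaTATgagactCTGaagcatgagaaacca
Fcgr2b ITIM: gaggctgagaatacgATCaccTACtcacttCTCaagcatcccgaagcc
No ITAM pattern was found in the longest coding transcripts of Fcgr1, Fcgr2b, Fcgr3, Fcgr4 or Fcgrt (0 matches each). The Fcer1g stretch is from transcript Fcer1g-201 (261 coding bases), as the longer Fcer1g-203 (279 coding bases) gave no match. The searches thus differ, since shorter transcripts of the other genes were not read for an ITAM.

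Fcgr2b, Fcgr4 and Fcgr3 lie next to each other within 106 kb of chromosome 1, at chr1:170958617-170976547, chr1:171018920-171029761 and chr1:171051174-171064935. Fcer1g lies on the same chromosome at chr1:171229572-171234365, Fcgr1 at chr3:96282909-96293969 and Fcgrt at chr7:45092990-45103851. Fcgr4 is on the plus strand and the other members are on the minus strand. Fcgr2b and Fcgr3 encode closely related extracellular domains, and their longest identical coding run has 129 bases. It spans exons 3 and 4 of both genes (chr1:170967980-170968081 and chr1:170966674-170966700 in Fcgr2b, chr1:171057691-171057792 and chr1:171054167-171054193 in Fcgr3), and is printed because a read that falls wholly inside it fits both genes.
Fcgr2b and Fcgr3: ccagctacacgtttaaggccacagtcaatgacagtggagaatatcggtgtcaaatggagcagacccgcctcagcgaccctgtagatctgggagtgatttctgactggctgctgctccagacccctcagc
Of the 31-base words in the exons of Fcgr3, 13.4% also occur in Fcgr2b, and these make up 4.15% of the words of Fcgr2b, of which 8.15% occur in any other gene. Shared words were 1.39% for Fcgr4 and 1.88% for Fcgrt, and there were 0 for Fcgr1 and Fcer1g. How the counting treated reads that fit several places is not given in the sources used here, so the levels of Fcgr2b and Fcgr3 are uncertain by what such reads contribute. The counting also ignored strand, and 155 exonic bases of Fcgr2b are shared with the antisense gene Gm38204, which itself had counts of 10 and 7 in control and 0 and 7 with EGCG.

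The 4 libraries were of similar depth, with 17767318 to 18390385 counts assigned to genes. Between the control libraries the counts differed by a mean chi-square of 6.79 per gene and between the EGCG libraries by 6.57, beyond sampling noise in both. Control replicate 1 stood further from EGCG replicates 1 and 2 (15.9 and 12.3), whereas control replicate 2 differed from them by 7.502 and 6.63, much like a replicate. The labelled cells were checked against marker genes. Neutrophil markers (Ly6g, S100a8, S100a9 and 5 others, 8 of 8 detected) summed to between 50206 and 69730 CPM (counts per 1000000 of the library total, scaled by the TMM method), against 925 to 1021 for 6 monocyte markers, 384 to 431 for 7 B cell markers and 308 to 396 for 9 splenic macrophage markers. Genes of other cells that use Fc receptors were thus detected, and in bulk RNA fewer cells of a type cannot be told apart from less RNA per cell. The neutrophil sum came mostly from S100a8 (14461 to 22838 CPM) and S100a9 (22455 to 31668 CPM), while Ly6g was at 943 to 1200 CPM. The sums therefore do not give shares of cells.

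Each level below is in CPM and each change is the log2 fold change of EGCG over control from the quasi-likelihood fit of edgeR, and p-values were adjusted (Benjamini-Hochberg) over all 14682 genes. Of the 6 Fc receptor genes, 0 had an adjusted p under 0.05 in edgeR, where 0.136% of all tested genes were called lower and 0.0136% higher. DESeq2, which gave an adjusted p to 7850 genes and to all 6 members, also called 0, where it called 0.637% of those genes lower and 0.178% higher. With an unadjusted p under 0.05, 1 member was lower in edgeR (7.02% of all tested genes were) and 0 were higher (5.22% of all tested genes were), and DESeq2 gave 1 member, Fcgr2b in both tools, lower (3.69% of all tested genes were) and 0 higher (2.59% were). The EGCG libraries lay wholly below the control libraries for 1 member, against 21.2% of all tested genes, and wholly above for 0 members, against 21.5%. These shares do not set the members apart from the background. The log2 fold change was negative for 3 members and positive for 3, with a median of -0.014 beside 0.0031 over all tested genes.

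**Figure D1:**
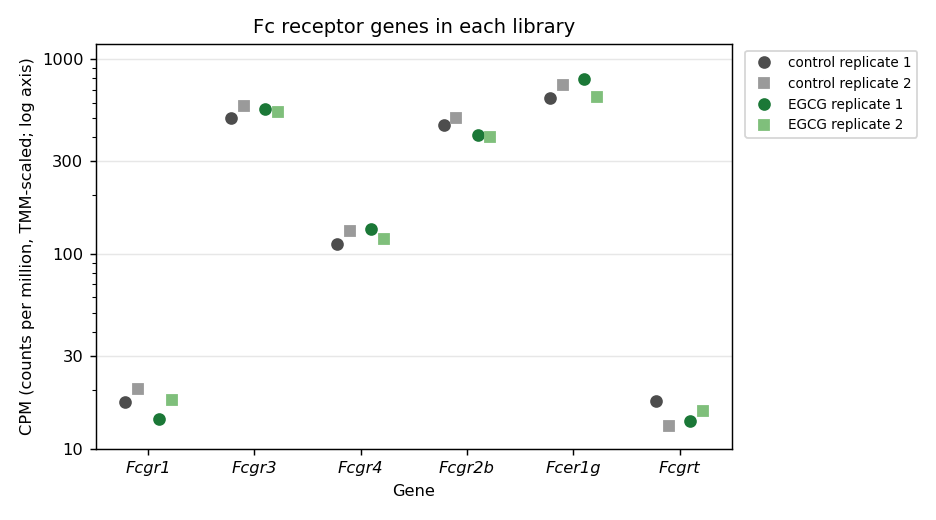
Level of each Fc receptor gene in the 4 libraries, in CPM scaled by TMM on a log axis. Points are single libraries (control replicates in gray, EGCG replicates in green), and only for Fcgr2b do both EGCG points lie below both control points.

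The member with the smallest unadjusted p was the inhibitory receptor Fcgr2b (ENSMUSG00000026656). Control replicates 1 and 2 had 8370 and 8976 counts and EGCG replicates 1 and 2 had 7380 and 7106, or 458 and 502 CPM against 407 and 398 CPM. Both EGCG libraries thus lay below both control libraries. The mean level was 480.3 ± 31.05 CPM (SD, n = 2) in control and 402 ± 6.49 CPM (SD, n = 2) with EGCG, a log2 fold change of -0.26 (SE 0.08, 95% confidence interval -0.42 to -0.09). On the linear scale this is 0.838 times the control level (0.747 to 0.940). The unadjusted edgeR p was 0.0051 and the adjusted p 0.221, so Fcgr2b did not pass the threshold. It ranked 340 by p among all tested genes. The log2 fold change lay between -0.32 and -0.19 with any library left out, and between -0.29 and -0.23 in the 10 other fits, with adjusted p from 0.0717 to 0.659.

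Marker sums of other cell types also differed between the groups. Among all tested genes, taken singly, 21.2% lay wholly below control and 21.5% wholly above. The summed macrophage markers were at 396 and 392 CPM in control and 308 and 327 CPM with EGCG. The monocyte markers were at 1021 and 981 CPM in control and 925 and 931 CPM with EGCG. Both sums were lower in both EGCG libraries. All 9 macrophage markers had a negative log2 fold change (median -0.30) and none was at 0 in the libraries. Of the 6 monocyte markers 5 had a negative log2 fold change and 1 a positive one (median -0.16), and the sum was carried mostly by Csf1r, at 632 and 598 CPM in control and 536 and 578 CPM with EGCG. Ly6c2, whose product the Gr-1 antibody also binds, overlapped between the groups (120.3 and 147 CPM against 158 and 132 CPM). The B cell markers did not follow, at 384 and 399 CPM in control and 431 and 389 CPM with EGCG, so that the groups overlapped. Endothelial markers, of which 7 were listed, were at 28.8 and 29.6 CPM in control and 16.7 and 20.8 CPM with EGCG. Platelet markers summed to 40.7 and 44.0 CPM in control and 35.8 and 36.8 CPM with EGCG. T cell markers (89.9 and 102 CPM in control, 104 and 107 CPM with EGCG) and NK cell markers (5.70 and 6.27 CPM against 6.89 and 6.38 CPM) went the other way, wholly above control. The T cell sum came mostly from Cd3d (75.2 and 86.0 CPM in control, 87.7 and 90.2 CPM with EGCG). Of the 6 T cell markers 5 had a positive log2 fold change and 1, Cd8a, a negative one. Only 2 of the 4 NK cell markers were tested, 1 higher and 1 lower, and Klra8 was at 0 in all libraries. The neutrophil markers summed to 50206 and 60820 CPM in control and 69730 and 60247 CPM with EGCG, so that the groups overlapped. Of these 8 markers 6 had a positive log2 fold change and 2 a negative one (median 0.11). Over the 12 marker lists edgeR called 0 of 67 tested genes, and at an unadjusted p under 0.05 had 12 lower and 4 higher, where 7.02% and 5.22% of all tested genes were. DESeq2 called 1 of the 36 to which it gave an adjusted p, against 0.637% of all such genes called lower. It was the macrophage gene Cd5l, named after its values were seen (adjusted p 0.0381), which was at 55.6 and 40.2 CPM in control and 28.8 and 34.9 CPM with EGCG. DESeq2 gave no endothelial marker an adjusted p (0 of 6 tested). The part of these cells in the level of Fcgr2b was not tested.

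The most abundant activating receptor was Fcgr3 (ENSMUSG00000059498), the low-affinity receptor of neutrophils and monocytes. Its counts were 9124 and 10319 in control and 10093 and 9567 with EGCG, at 499.7 and 577 CPM against 557 and 536 CPM. The EGCG libraries lay inside the control range. Means were 539 ± 55.0 and 546 ± 14.9 CPM (SD, n = 2 each), and the log2 fold change was 0.02 (SE 0.08, 95% confidence interval -0.16 to 0.20, edgeR adjusted p = 0.953). Its sign turned with library size as the only scaling, with an offset for gene length, and without control replicate 1 or EGCG replicate 1.

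Fcgr4 (ENSMUSG00000059089), which binds IgG2a and IgG2b and is found on neutrophils and monocytes, had counts of 2067 and 2336 in control and 2442 and 2137 with EGCG. These are 113 and 131 CPM against 135 and 119.6 CPM. Control replicate 2 lay above EGCG replicate 2, so the groups overlapped. The means were 122 ± 12.4 and 127 ± 10.6 CPM (SD, n = 2 each), with a log2 fold change of 0.06 (SE 0.09, 95% confidence interval -0.13 to 0.25, edgeR adjusted p = 0.839).

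Fcgr1 (ENSMUSG00000015947), the high-affinity IgG receptor, was the scarcest of the 4 IgG receptors. Counts of 319 and 361 in control and 259 and 317 with EGCG gave 17.5 and 20.2 CPM against 14.3 and 17.7 CPM. Control replicate 1 was below EGCG replicate 2, so the groups overlapped. Counting error alone gives 95% Poisson intervals of 285 to 356 and 325 to 400 counts for the control libraries and 228 to 293 and 283 to 354 for the EGCG libraries, and such intervals cover counting error only. The means were 18.8 ± 1.93 and 16.0 ± 2.45 CPM (SD, n = 2 each), with a log2 fold change of -0.23 (SE 0.13, 95% confidence interval -0.52 to 0.05). The edgeR p was 0.0980 unadjusted and 0.515 adjusted. The interval includes 0.

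Fcer1g (ENSMUSG00000058715), the signaling chain of the activating receptors, was the most abundant member. Its counts were 11612 and 13255 in control and 14359 and 11463 with EGCG, at 636 and 742 CPM against 792 and 642 CPM. The EGCG libraries were the highest and the second lowest of the 4, so the groups overlapped. Means were 689 ± 74.8 and 717 ± 106 CPM (SD, n = 2 each), with a log2 fold change of 0.06 (SE 0.10, 95% confidence interval -0.16 to 0.28, edgeR adjusted p = 0.872).

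Fcgrt (ENSMUSG00000003420), the heavy chain of FcRn, had counts of 320 and 233 in control and 252 and 280 with EGCG. These are 17.5 and 13.04 CPM against 13.9 and 15.7 CPM. The control libraries enclosed the EGCG libraries. The means were 15.3 ± 3.17 and 14.8 ± 1.26 CPM (SD, n = 2 each), and the log2 fold change was -0.05 (SE 0.15, 95% confidence interval -0.36 to 0.27, edgeR adjusted p = 0.929). Its partner B2m, beta-2-microglobulin, was at 725 and 875 CPM in control and 787 and 789 CPM with EGCG, again with overlap (log2 fold change -0.02, SE 0.09, edgeR adjusted p = 0.952).

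**Figure D2:**
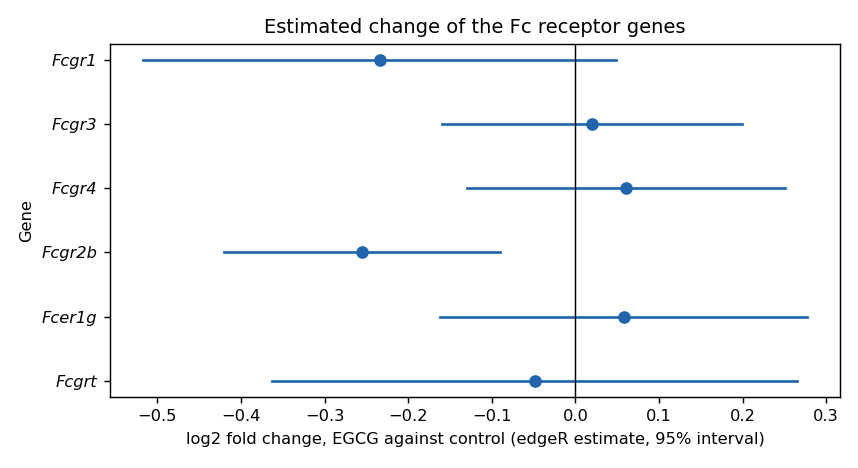
Log2 fold change of EGCG over control for the 6 Fc receptor genes from the edgeR fit, with 95% confidence intervals as bars and a line at 0. The interval of Fcgr2b (-0.42 to -0.09) lies below 0 and those of the other 5 genes include 0, while no gene passed after adjustment.

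Each library was left out in turn. The log2 fold change of Fcgr1 ranged from -0.40 to -0.08. Fcgr3 ranged from -0.076 (without control replicate 1) to 0.13, and was -0.0054 without EGCG replicate 1. Without control replicate 1 Fcgr4 was at -0.035, without EGCG replicate 1 at -0.025, and it reached 0.17. Fcer1g gave -0.044 when control replicate 1 was omitted, -0.10 when EGCG replicate 1 was omitted, and at most 0.20. Fcgrt turned positive without control replicate 1 (0.19) and without EGCG replicate 1 (0.038), and reached -0.24. Fcgr1 and Fcgr2b kept a negative sign in all 4 of these fits, and 0 members were called in any.

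**Figure D3:**
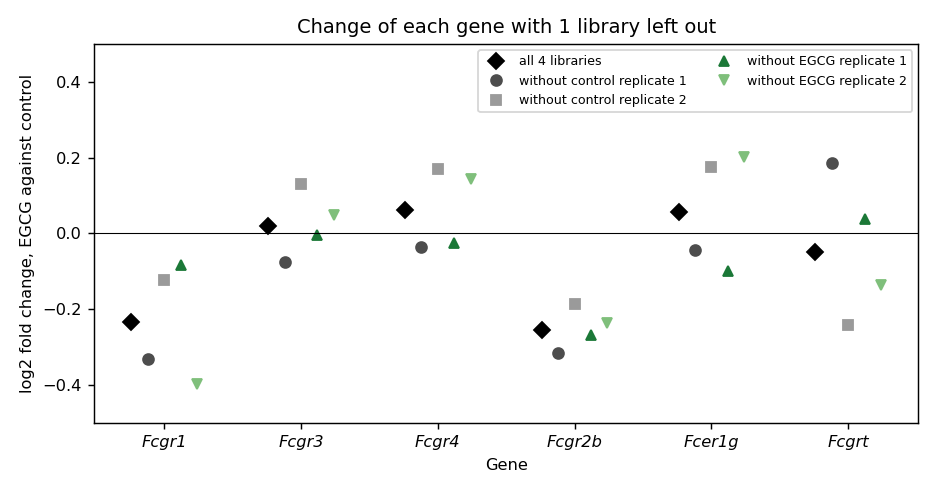
Log2 fold change of EGCG over control for each Fc receptor gene with all libraries and with each of the 4 libraries left out. The points of Fcgr1 and Fcgr2b stay below 0, and those of Fcgr3, Fcgr4, Fcer1g and Fcgrt lie on both sides of it.

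Between genes, levels were compared per length, in CPM per kb of the median coding transcript. In control the level was 1015 ± 110 for Fcer1g, 403 ± 41.2 for Fcgr3, 316 ± 20.4 for Fcgr2b, 97.1 ± 9.86 for Fcgr4, 9.06 ± 1.88 for Fcgrt and 7.28 ± 0.746 for Fcgr1 (SD, n = 2 each). The order was the same with EGCG, at 1057 ± 156, 409 ± 11.1, 265 ± 4.27, 101 ± 8.47, 8.77 ± 0.746 and 6.19 ± 0.946. Fcgrt and Fcgr1 overlapped in the control libraries (10.4 and 7.73 against 6.75 and 7.80) and not with EGCG, and the other neighbours in the order did not overlap. The places of Fcgr2b and of Fcgrt depend on the length used. The merged exons of Fcgr2b come to 5790 bases against 1520 for its median coding transcript, and with merged exons Fcgr2b was at 83.0 ± 5.36 in control, below Fcgr4 at 97.1 ± 9.86. With merged exons Fcgrt and Fcgr1 also lay at the same level in control, at 7.27 ± 1.51 and 7.28 ± 0.746.

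Because activating and inhibitory IgG receptors oppose each other in the same cell, their levels per length were set against each other within each library, where scaling between libraries cancels. The ratio of Fcgr3 to Fcgr2b was 1.24 and 1.31 in control and 1.56 and 1.53 with EGCG. The ratio of Fcgr4 to Fcgr2b was 0.299 and 0.315 in control and 0.4004 and 0.364 with EGCG. Both ratios were higher in both EGCG libraries than in either control library. On the log2 scale, the Fcgr3 ratio was 0.35 ± 0.05 in control and 0.63 ± 0.02 with EGCG (SD, n = 2 each), a difference of 0.28. For Fcgr4 it was -1.70 ± 0.05 against -1.39 ± 0.10, a difference of 0.32. The ratio of Fcgr1 to Fcgr2b overlapped between the groups, at 0.0224 and 0.0236 against 0.0206 and 0.0262.

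The 3 activating receptors summed to 1.56 and 1.65 times the level of Fcgr2b in control and 1.98 and 1.92 times with EGCG, a log2 difference of 0.28 that lay between 0.24 and 0.32 with any library left out. The ratios themselves depend on the length used. With merged exons the sum was 4.86 and 5.12 times the level of Fcgr2b in control and 6.17 and 5.98 times with EGCG, and Fcgr4 lay above Fcgr2b (1.14 and 1.20 in control, 1.53 and 1.39 with EGCG). A length cancels from the log2 difference between groups for a ratio of single genes, so that difference says nothing on the choice of length. These ratios share Fcgr2b as denominator and are not independent of its level. Fcer1g stood at 1.99 and 2.01 times the summed activating receptors in control and at 2.20 and 1.88 times with EGCG, so that the groups overlapped. The ratios are given as a description with no test. An exact permutation test of 2 against 2 libraries cannot give a p below 0.3333. The macrophage and monocyte marker sums were lower in the same EGCG libraries, as given above, and their part in the ratios was not tested.

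**Figure D4:**
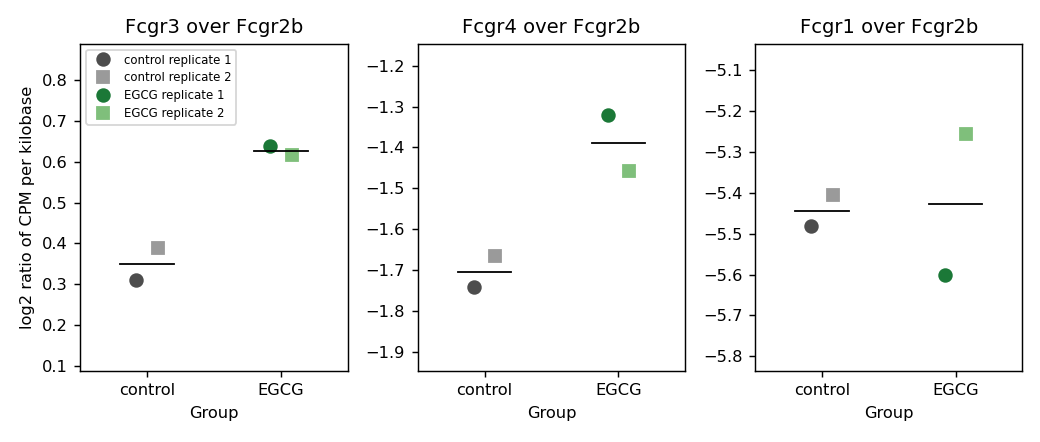
Log2 ratio of the level (CPM per kb of coding transcript) of Fcgr3, Fcgr4 and Fcgr1 to that of Fcgr2b, by group, in panels whose axes start at different values and span the same range. Points are libraries and lines are group means, and both EGCG points lie above both control points for Fcgr3 and Fcgr4, while for Fcgr1 the groups overlap.

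As shares of the summed level of the 4 IgG receptors per length, Fcgr2b took 39.0% and 37.8% in control and 33.6% and 34.2% with EGCG. Fcgr3 took 48.4% and 49.4% in control and 52.3% and 52.4% with EGCG. Fcgr4 took 11.7% and 11.9% in control and 13.4% and 12.5% with EGCG, while Fcgr1 took 0.692% to 0.896%. The shares of a sum move against each other by construction. With merged exonic length the share of Fcgr1 was 1.10% to 1.47%, and that of Fcgr2b was 17.1% and 16.3% in control and 14.0% and 14.3% with EGCG.

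The genes that work with the receptors were read from 6 lists. In each list 0 genes were called by edgeR, and DESeq2 called 1 gene in the inhibitory list (of 12 with an adjusted p), 1 in the actin list (of 29) and 0 in the others (of 6 other Fc receptors, 7 partners, 26 activating and 8 interferon gamma axis genes), against 0.637% of all genes called lower and 0.178% higher. With an unadjusted p under 0.05, edgeR had 0 lower and 1 higher among the other Fc receptors, 0 and 0 among the partners, 1 and 1 in activating signaling, 1 and 0 in the inhibitory list, 1 and 2 in the actin list and 1 and 0 in the interferon gamma axis, where 7.02% and 5.22% of all tested genes were. The other Fc receptors, for IgE, IgM, IgA and the Fc receptor-like and cytosolic receptors, had 9 of 13 genes tested, with 1 gene wholly below control and 3 wholly above (of all tested genes, 21.2% and 21.5% were), and a median log2 fold change of 0.00025 (0.12 when control replicate 1 was left out). The IgE receptor subunit Fcer1a, which basophils and mast cells carry, was the gene of this list with an unadjusted p under 0.05. It was at 7.61 and 10.6 CPM in control and 12.4 and 11.2 CPM with EGCG (log2 fold change 0.37, SE 0.17, edgeR adjusted p = 0.390), and leaving out control replicate 1 or 2 gave log2 fold changes of 0.16 and 0.63. Basophil and mast cell markers summed to 498 and 549.8 CPM in control and 507 and 534 CPM with EGCG, with overlap.

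Of the partner subunits, ITAM adaptors and other receptors that use the Fcer1g chain, 9 of 12 were tested, with 0 wholly below and 2 wholly above control, against 21.2% and 21.5% of all tested genes, and a median of 0.09 (0.038 and 0.18 when control replicate 1 or 2 was left out). Genes downstream of activating receptors (30 of 30 tested) had 8 wholly below and 6 wholly above, near the 21.2% and 21.5% of all tested genes, with a median of -0.03 (0.0025 when EGCG replicate 1 was left out and -0.070 when EGCG replicate 2 was). The kinase Src, a member of the family that phosphorylates ITAMs, was at 10.1 and 7.83 CPM in control and 6.56 and 6.16 CPM with EGCG (log2 fold change -0.50, SE 0.18, edgeR adjusted p = 0.279), and leaving out control replicate 1 gave a log2 fold change of -0.30. The MAP kinase kinase Map2k1 was at 163 and 178 CPM in control and 182 and 203 CPM with EGCG (log2 fold change 0.18, SE 0.08, edgeR adjusted p = 0.403), and leaving out EGCG replicate 2 gave a log2 fold change of 0.098.

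The inhibitory list (12 of 12 tested, Inpp5d among them) had 5 genes wholly below and 3 wholly above control, against 21.2% and 21.5% of all tested genes, with a median of -0.06 (-0.031 when control replicate 1 was left out and -0.010 with the length offset). Cbl, a ubiquitin ligase that limits signaling by tyrosine kinases, was at 577 and 584 CPM in control and 486 and 459 CPM with EGCG, with no overlap (log2 fold change -0.30, SE 0.07, edgeR adjusted p = 0.133). DESeq2 called it, with an adjusted p of 0.0381, as did edgeR with library size as the only scaling, at 0.0330. In the other alternative fits it was not called, with adjusted p up to 0.593 (no filter), and the length offset gave a log2 fold change of -0.18 (adjusted p 0.443).

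The actin and membrane genes of Fc receptor phagocytosis (30 of 30 tested) had 3 genes wholly below and 9 wholly above control, against 21.2% and 21.5% of all tested genes, with a median of 0.04 (0.077 when control replicate 2 was left out and 0.018 when EGCG replicate 2 was). Myo10, an unconventional myosin of filopodia and phagocytic cups, was at 31.7 and 24.8 CPM in control and 14.3 and 19.8 CPM with EGCG, with no overlap (log2 fold change -0.73, SE 0.15, edgeR adjusted p = 0.0717). DESeq2 called it at an adjusted p of 0.0177. Endothelial markers moved with it, as given above, and their part was not tested. Arf6, a small GTPase of membrane traffic at the cup, was at 167 and 175 CPM in control and 193 and 196 CPM with EGCG (log2 fold change 0.18, SE 0.07, edgeR adjusted p = 0.343). Arpc4, a subunit of the actin-nucleating Arp2/3 complex, was at 259 and 259.7 CPM in control and 279 and 305 CPM with EGCG (log2 fold change 0.17, SE 0.08, edgeR adjusted p = 0.394), and without EGCG replicate 2 its log2 fold change was 0.10.

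Interferon gamma and the transcription factor PU.1 are known to act on Fc receptor genes of myeloid cells. The 8 genes of that axis (8 tested) had 1 wholly below and 2 wholly above control, near the 21.2% and 21.5% of all tested genes, with a median of 0.02 (-0.038 and 0.10 when control replicate 1 or 2 was left out, and -0.013 with library size as the only scaling). Jak2, a kinase of the interferon gamma receptor, was at 364 and 407 CPM in control and 319 and 348 CPM with EGCG, with no overlap (log2 fold change -0.21, SE 0.08, edgeR adjusted p = 0.332), and the log2 fold change was -0.12 without control replicate 2. Spi1, the gene of PU.1, was at 873 and 882 CPM in control and 942 and 963 CPM with EGCG, wholly above control. The log2 fold change of Spi1 was 0.12 (SE 0.08, edgeR adjusted p = 0.570).

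**Figure D5:**
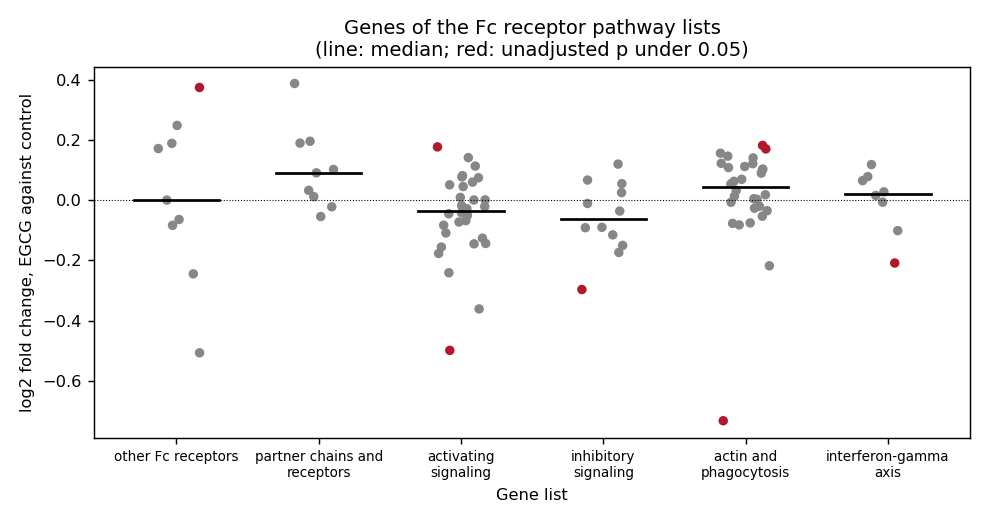
Log2 fold change of EGCG over control for the genes of the 6 lists around the Fc receptors, with the median of each list as a line and genes at an unadjusted p under 0.05 in red. Points are genes that passed the filter on low counts, the medians lie between -0.06 and 0.09, and Myo10 (-0.73) is the lowest point.

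Promoters are shown for the high-affinity receptor Fcgr1, for Fcgr2b, whose p was the smallest, and for Fcgr3, the most abundant activating receptor, as the 250 bases before the start of transcription in RefSeq (GRCm38.p6), 5′ to 3′ along the gene: Fcgr1 at chr3:96293970-96294219, Fcgr2b at chr1:170976072-170976321 and Fcgr3 at chr1:171059404-171059653, all on the minus strand. Capitals mark matches, on either strand, to GAGGAA, the core of many PU.1 sites. Read on the opposite strand the motif is TTCCTC.
Fcgr1: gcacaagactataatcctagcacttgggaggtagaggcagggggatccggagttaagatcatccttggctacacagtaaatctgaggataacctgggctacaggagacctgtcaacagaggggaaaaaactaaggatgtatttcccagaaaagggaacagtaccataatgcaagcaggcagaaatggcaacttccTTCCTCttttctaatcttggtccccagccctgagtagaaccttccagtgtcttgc
Fcgr2b: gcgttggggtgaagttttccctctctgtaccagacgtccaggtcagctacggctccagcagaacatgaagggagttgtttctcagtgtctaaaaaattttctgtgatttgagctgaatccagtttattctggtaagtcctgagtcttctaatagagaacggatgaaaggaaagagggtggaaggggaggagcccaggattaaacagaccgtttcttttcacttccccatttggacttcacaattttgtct
Fcgr3: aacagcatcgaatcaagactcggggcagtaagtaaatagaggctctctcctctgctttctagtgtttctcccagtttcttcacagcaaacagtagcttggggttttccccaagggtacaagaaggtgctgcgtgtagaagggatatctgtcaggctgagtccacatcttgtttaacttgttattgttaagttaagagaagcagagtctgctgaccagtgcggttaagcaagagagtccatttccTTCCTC
The Fcgr1 promoter held GAGGAA at 55 bases before the start and the Fcgr3 promoter at 6, or at 15 from a second RefSeq start of Fcgr3. Fcgr4 held it at 22 bases before its start, and Fcgr2b, Fcer1g and Fcgrt did not hold it. Thus 3 of 6 members had GAGGAA, where 23.3% of 32851 promoters of the same length did. These matches describe letters only. By GENCODE, Fcgr2b reaches upstream to chr1:170976547 and Fcgr3 to chr1:171064935, so the windows of both lie inside the annotated genes. The bases before those GENCODE starts were not read.

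For each member, the gene of the 6 lists with the most similar pattern over the 4 libraries was found by the root mean square (RMS) difference of centred log2 CPM, among 98 candidates. Fcgr1 lay nearest to Trim21, the cytosolic antibody receptor (RMS 0.025), Fcgr2b to Cbl (0.049) and Fcgr3 to the transcription factor Irf1 (0.0090). Fcgr4 lay nearest to Arpc2, of the Arp2/3 complex (0.028), Fcer1g to the adaptor Hcst (0.032) and Fcgrt to Sos1, an exchange factor for Ras (0.097). The match of Fcgrt was not distinct, as Limk1 of the actin list was almost as near (0.098). The median RMS over the candidates was 0.18 for Fcgrt. All genes of a library share its depth and its mix of cells, and with 4 libraries these are descriptions. Trim21 was at 23.2 and 28.1 CPM in control and 19.4 and 23.9 CPM with EGCG, and Irf1 at 112 and 127 CPM against 124 and 119.8 CPM, both with overlap. Arpc2 (1075 and 1191 against 1231 and 1135 CPM), Hcst (43.5 and 52.8 against 53.0 and 44.1 CPM) and Sos1 (29.7 and 25.8 against 24.2 and 26.0 CPM) overlapped as well.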

How the data were processed

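RNA was sequenced from 2 control and 2 EGCG libraries. Per the labels and the study's methods, the authors aligned reads with STAR 2.6.0c to GRCm38 and counted them per gene with featureCounts 1.6.2 on Ensembl release 91. They deposited the resulting counts, which are whole numbers with no normalization, made without regard to strand. The labels give day 21 for the spleens, and the methods give an earlier day for sorting. Genes with too few counts were removed (filterByExpr, minimum count 10), libraries were scaled by TMM, and edgeR 4.0.16 (quasi-likelihood test, legacy form) compared EGCG with control, with Benjamini-Hochberg adjustment over 14682 genes and a threshold of 0.05. CPM used the TMM-scaled library sizes. Lengths, positions and coding sequences came from GENCODE M21, and promoters from RefSeq (all 6 members matched). The test was tried on simulated data first. The alternatives included DESeq2 1.42.0, other scalings and filters, a gene length offset, a replicate block and each library left out. Named genes were the members, B2m, in each list up to 3 genes with the largest change among those at an unadjusted p under 0.05 (or any called), and the gene nearest in pattern to each member. Spi1, the gene of PU.1, was added after the values were seen. The members and lists were chosen with earlier results of these data known. Totals of 17767318 to 18390385 counts limit the precision of Fcgr1 and Fcgrt most.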

Additional observations from a re-analysis of the deposited data

How the results depend on the processing

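With 2 libraries a group, 0 of the 6 Fc receptor genes were called in the 10 alternative fits and in the 4 fits with a library left out. The number of all genes called lower was 20, and was 0 without a filter, 9 with a minimum count of 30, 9 by upper quartiles, 135 with library size only, 50 in DESeq2, 49 by robust estimation, 6 with the length offset, and 72 to 235 with a library left out (72 without control replicate 1, 235 without control replicate 2, 90 without EGCG replicate 1 and 199 without EGCG replicate 2). The number called higher was 2, and was 0 without a filter, 1 with a minimum count of 30, 16 with library size only, 14 in DESeq2, 6 with the newer form of the edgeR test and 14 with robust estimation, and 5 to 119 with a library left out (5 and 119 without control replicates 1 and 2, 28 and 53 without EGCG replicates 1 and 2). A group left with 1 library is assumed to vary like the other.

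With library size only and in DESeq2, 1 gene of the inhibitory list (Cbl, adjusted p 0.0330 and 0.0381) and 1 of the actin list (Myo10, 0.0101 and 0.0177) were called lower. With a library left out the actin list ranged from 0 to 1 (Myo10, without control replicate 2 or EGCG replicate 2) and the partner list called higher from 0 to 1 (Clec4d, without control replicate 2). For Fcgr3 the log2 fold change was -0.013 with library size only and -0.022 with the length offset, that of Fcer1g -0.017 with the length offset, that of Hcst -0.022 and -0.074 in these fits, and that of Irf1 -0.0063 with library size only. Fcgr4 stayed positive but was smaller, at 0.027 with library size only and 0.0054 with the length offset. The causes were not tested. With a library left out, log2 fold changes ranged from -0.40 to -0.08 for Fcgr1, -0.32 to -0.19 for Fcgr2b, -0.076 to 0.13 for Fcgr3, -0.035 to 0.17 for Fcgr4, -0.10 to 0.20 for Fcer1g, -0.24 to 0.19 for Fcgrt, -0.0046 to 0.14 for Arpc2, -0.15 to 0.12 for B2m, -0.13 to 0.16 for Hcst, -0.058 to 0.13 for Irf1, 0.16 to 0.63 for Fcer1a, -0.67 to -0.30 for Src, 0.098 to 0.25 for Map2k1, 0.10 to 0.24 for Arpc4, -0.28 to -0.12 for Jak2, -0.40 to -0.097 for Trim21, -0.24 to -0.034 for Sos1, and -0.98 to -0.51 for Myo10.

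The median of the other Fc receptors was 0.11 without a filter. With library size only the medians were -0.070 for activating signaling, -0.10 for the inhibitory list, 0.0085 for the actin list and -0.013 for the interferon gamma axis. The inhibitory median was -0.056 (upper-quartile scaling) and -0.010 (length offset). With a library left out, the medians ranged from 0.023 to 0.12 (other Fc receptors), 0.038 to 0.18 (partners), -0.070 to 0.0025 (activating), -0.064 to -0.031 (inhibitory), 0.018 to 0.077 (actin) and -0.038 to 0.10 (interferon gamma axis). The ratio differences ranged from 0.24 to 0.32 (Fcgr3), 0.25 to 0.38 (Fcgr4) and -0.16 to 0.19 (Fcgr1 to Fcgr2b). The merged exonic length was chosen after seeing the data.

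The replicate numbers gave little sign of a pairing: the deviations of same-numbered libraries correlated at 0.033 over 14682 genes. With 2 libraries a group the deviations within a group mirror each other. This single contrast therefore cannot show whether same-numbered libraries share a mouse, a sort or a batch. With a replicate block 24 genes were called lower and 6 higher, 0 of them Fc receptor genes, and Fcgr2b was at -0.25 (adjusted p 0.186).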
